A study of Mus musculus with 2 samples.

Results

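Capillary endothelial cells of the mouse abdominal aorta were described here in a normal saline (Control) library and in a library from mice given AngII with high salt (AngII+HS). A cell was counted as capillary by its raw counts of unique molecular identifiers (UMIs, 1 per captured RNA molecule). It had to hold at least 2 UMIs of *Pecam1*, *Cdh5* and *Egfl7* together, at least 1 of *Gpihbp1* and at least 2 of *Cd36*. It could hold at most 1 UMI of each of *Gja5* with *Bmx* (arterial), *Selp* (venous), *Prox1* with *Mmrn1* (lymphatic), *Ptprc* (leukocyte) and *Kcnj8* with *Abcc9* (pericyte), and at most 5 of *Dcn* (fibroblast). In all, 456 of 35848 cells met this rule, 126 of 11288 in Control and 330 of 24560 in AngII+HS. The members were thus selected on measured values, so the levels of these genes are descriptions only.

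Suprarenal abdominal aortas came from 5-month-old male C57BL/6J mice. The AngII+HS mice received AngII at 1500 ng/kg/min by osmotic minipump with 0.9% NaCl and 0.2% KCl in their drinking water, and both groups were taken at 28 days. The design text states that tissue of 5 mice was pooled per sample, whereas the extraction label speaks of 1 control mouse and 2 AngII mice. Each condition thus has 1 library, no test between conditions was possible, and the intervals below are 95% exact intervals that cover counting error only.

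The deposited barcode lists differed in length from the matrices they were recorded with. The list recorded with Control holds 24804 barcodes, as many as the AngII+HS matrix has cells, and the one recorded with AngII+HS holds 11448, as many as the Control matrix. The count matrices were taken under the sample they were recorded with; if the matrices were exchanged as well, every direction given here would turn round. The lists share 67 barcodes, which 1 Control and 2 AngII+HS capillary cells carry if the lists are read with the matrices they fit in length. The capillary cells held 583657 UMIs in Control (median 3743 per cell, range 998 to 13478) and 1472404 UMIs in AngII+HS (median 3370.5, range 595 to 29340).

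Capillary endothelium exchanges nutrients between blood and tissue. In fat, heart and muscle its cells take up fatty acids: lipoprotein lipase frees them from circulating lipoproteins while held on the vessel wall by GPIHBP1, and CD36 and the fatty acid binding proteins carry them inward. In large arteries such vessels are found in the vasa vasorum and the surrounding adventitial and fat tissue rather than in the lining of the lumen. Endothelial cells of capillaries and small veins that are being remodelled commonly express PLVAP, which forms the diaphragms of fenestrae and caveolae.

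The label was checked against genes outside the rule. Levels are given as CPM, the UMIs of a gene scaled to an equal total for the summed cells of each library and population. *Rgcc*, a regulator of the cell cycle and a common capillary marker, stood at 1746 CPM in Control and 1515 CPM in AngII+HS capillary cells. In arterial cells (gated on *Gja5* and *Bmx*, without *Gpihbp1*; 217 and 153 cells) it stood at 27.5 and 67.0 CPM. In venous cells (gated on *Selp*, without *Gpihbp1*; 117 and 294 cells) it stood at 26.6 and 75.6 CPM. It was found in 96.8% and 87.6% of the capillary cells, against 28.0% and 20.2% of the T and B cells (132 and 1322 cells; medians 4555 and 2591.5 UMIs) of the same libraries. Lymphocytes can express *Rgcc*, so this share is not a pure background. The T and B cells held *Ptprc* and at least 2 UMIs of *Cd3d*, *Cd3e*, *Cd3g*, *Cd79a* and *Cd79b*, and at most 1 of the endothelial genes, 5 of *Dcn* and 2 of *Lyz2*, so the gate caps their levels of the latter. With each cell thinned to 1000 UMIs (1 Control and 12 AngII+HS capillary cells were shallower and left out), these shares were 71.2% and 68.2% of capillary cells and 12.9% and 8.17% of T and B cells.

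All 20 genes of a list of capillary markers were measured. *Btnl9*, a butyrophilin-like membrane protein, stood at 526 and 375 CPM, with 0 UMIs in Control arterial and venous cells (0 counts allow up to 3.17 and 4.98 CPM) and 1.46 and 1.09 CPM in those of AngII+HS. *Car4*, a carbonic anhydrase of the capillary surface, stood at 341 and 268 CPM. In venous cells it was at 1.66 and 58.2 CPM, and no UMI of it was found in arterial cells of either library. *Cd300lg*, a receptor of capillary and high venule endothelium, stood at 694 and 462 CPM. *Fabp4*, the fatty acid binding protein of fat and capillary endothelium, stood at 29322 and 33092 CPM, against 5117 and 5341 CPM in venous cells.

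The genes that stood farthest above both arterial and venous cells in each library were named by a fixed rule. Beside *Btnl9* and *Rgcc* they were *Tmem182*, *Aqp7* (a glycerol channel), *Gm12002*, *Rbp7* (a retinol binding protein and target of PPARG in endothelium), *Lpl* (lipoprotein lipase), *Slc28a2* (a nucleoside transporter), *Col28a1*, *Timp4* (an inhibitor of metalloproteinases), *Ccdc85a*, *Thrsp* (a regulator of lipid synthesis), *Car3*, *Tcf15* (a transcription factor of fatty acid-handling endothelium) and *Ablim3*. Of these, *Car3* is read with care, since in AngII+HS its 51.6 CPM equalled the 50.9 CPM in T and B cells. The smallest of the 4 log2 differences from arterial and venous cells ran from 7.42 (*Btnl9*) to 3.87 (*Ablim3*), with 0.5 UMIs added to each sum.

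**Figure D1:**
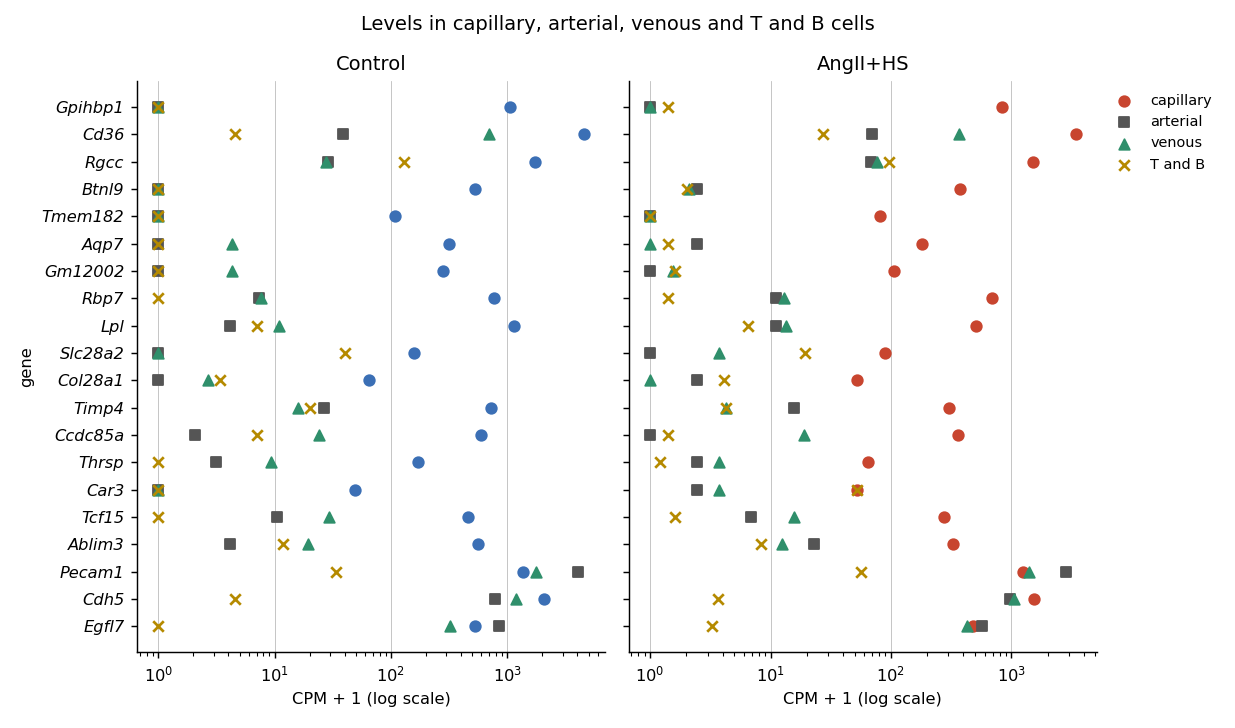
CPM + 1 on a log scale of the gate genes *Gpihbp1* and *Cd36*, the capillary marker *Rgcc*, the genes farthest above arterial and venous cells, and the general endothelial genes *Pecam1*, *Cdh5* and *Egfl7*, with 1 point per population and library. Apart from *Car3* in AngII+HS, where T and B cells reach the capillary level, the capillary points lie to the right of the others for the gate and capillary genes, while for *Pecam1* and *Egfl7* the arterial points lie farther right.

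Promoter windows of these genes are shown because the genes share their level pattern. RefSeq windows on GRCm38.p6, from 250 bases before to 50 after the start, were at hand for 12 of the 17 genes (the 15 just listed with *Gpihbp1* and *Cd36*), some with more than 1 window. Letters were searched on both strands. The ETS-type core AGGAAG was found in a window of 7 of the 12 genes and in 35.4% of all 32851 windows of this length. CACCC, a KLF-type core, was found for 10 of the 12 genes and in 57.5% of all windows, and TAATTA, a homeobox core, for 0 of the 12 and in 5.29%. The counts are per gene, some with more than 1 window, and the shares are per window, so they are not directly comparable. A match is a description of letters only. The windows of *Rgcc* (chr14:79301586-79301885), *Btnl9* (chr11:49187040-49187339), *Timp4* (chr6:115252156-115252455) and *Cd36* (chr5:17835847-17836146), all on the minus strand, are printed in lower case with AGGAAG or its reverse complement CTTCCT in capitals.
Rgcc: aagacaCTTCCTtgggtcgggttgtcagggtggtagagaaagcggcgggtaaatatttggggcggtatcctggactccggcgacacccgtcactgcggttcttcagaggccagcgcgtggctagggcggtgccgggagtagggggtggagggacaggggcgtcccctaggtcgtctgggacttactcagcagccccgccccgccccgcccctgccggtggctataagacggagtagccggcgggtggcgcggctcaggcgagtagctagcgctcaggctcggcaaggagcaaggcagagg
Btnl9: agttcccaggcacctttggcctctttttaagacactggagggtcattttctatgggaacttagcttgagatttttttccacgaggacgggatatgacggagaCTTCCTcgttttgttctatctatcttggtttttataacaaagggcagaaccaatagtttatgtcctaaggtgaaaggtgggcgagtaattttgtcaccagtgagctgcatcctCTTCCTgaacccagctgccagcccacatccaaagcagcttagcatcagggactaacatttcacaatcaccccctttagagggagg
Timp4: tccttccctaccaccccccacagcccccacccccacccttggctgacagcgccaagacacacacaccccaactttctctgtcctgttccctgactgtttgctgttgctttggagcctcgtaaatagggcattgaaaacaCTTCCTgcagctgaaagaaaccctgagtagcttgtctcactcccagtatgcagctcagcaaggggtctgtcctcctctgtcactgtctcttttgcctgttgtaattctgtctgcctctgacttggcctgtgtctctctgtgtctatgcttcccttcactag
Cd36: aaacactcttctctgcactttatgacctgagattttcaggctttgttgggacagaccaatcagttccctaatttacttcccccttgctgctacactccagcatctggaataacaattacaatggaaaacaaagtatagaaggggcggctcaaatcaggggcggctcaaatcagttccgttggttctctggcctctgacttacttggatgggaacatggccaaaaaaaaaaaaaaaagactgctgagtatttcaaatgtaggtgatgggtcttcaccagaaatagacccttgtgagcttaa
The *Btnl9* window holds the core at 2 places, those of *Rgcc* and *Timp4* at 1 place, and that of *Cd36* at none.

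Cells at the edge of the rule were counted for its main genes. The *Gpihbp1* part of the rule was met by a single UMI in 21 Control cells (16.7%) and 100 AngII+HS cells (30.3%). A further 66 and 161 cells failed through *Gpihbp1* alone. Exactly 2 UMIs of *Cd36* were held by 0 and 19 members, and 0 and 20 cells with 1 UMI lay just outside. The median member held 4 UMIs of *Gpihbp1* in Control and 3 in AngII+HS, and 17 and 11.5 of *Cd36*. *Gpihbp1* lies at chr15:75468474-75471331 and *Cd36* at chr5:17986432-18094067 on GRCm39; here and below, genome positions of genes are those of the GENCODE annotation on that build.

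Capillary cells made up 1.12% (0.931 to 1.33%) of all Control cells and 1.34% (1.20 to 1.496%) of all AngII+HS cells. Among cells of a general endothelial gate (1033 and 1579 cells) their share was 12.2% (10.3 to 14.3%) in Control and 20.9% (18.9 to 22.99%) in AngII+HS. Arterial cells made up 21.0% and 9.69% of that gate, and venous cells 11.3% and 18.6%. The share among all cells has no settled direction: with a stricter gate it was 0.842% in Control and 0.708% in AngII+HS, and with the gate applied to cells thinned to 1000 UMIs 0.710% and 0.651%. The share among endothelial cells stayed higher in AngII+HS under both, with 9.197% against 11.02% and 8.62% against 10.3%, though the log2 ratio dropped from 0.78 to 0.26 and 0.25.

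Across all genes, 8812 had at least 20 UMIs in the capillary cells over both libraries. Of these, 724 (8.22%) were at least 2-fold higher and 288 (3.27%) at least 2-fold lower in AngII+HS with a counting interval on one side of 0; such genes are called past the fold. The median log2 ratio of all genes was 0.03. Counts of list members past the fold below are to be read beside these shares of 8.22% and 3.27%. Each was also set beside its level in T and B cells, which take up free RNA but are of another type. For genes that lymphocytes can express, this level is not a pure background, here and below. Of the 724 higher genes, 508 stood less than 2-fold above T and B cells in the library where they were higher, and 216 stood at least 2-fold above. Of the 288 lower genes these numbers were 147 and 141. The ratio pointed the same way in arterial cells for 540 of the 724 higher and 198 of the 288 lower genes, and in venous cells for 586 and 223. It was also 2-fold in arterial cells for 306 of the higher and 81 of the lower genes, and in venous cells for 391 and 111. The share of all 8812 genes with the same direction is not given, so these counts have no base rate to be read beside.

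Neutrophil markers summed to 8.57 CPM in Control and 736 CPM in AngII+HS capillary cells, with all 6 measured genes past the fold. In T and B cells the same list summed to 9.61 and 1224 CPM. Its most abundant gene in the capillary cells, *S100a9*, stood at 3.43 and 328 CPM, and 5 of its 7 genes were at 0 in Control. Macrophage markers summed to 29.1 and 433 CPM, led by *Lyz2* with 8.57 and 166 CPM. In T and B cells they summed to 18.02 and 281 CPM, where the gate allowed at most 2 UMIs of *Lyz2* per cell and so holds this sum down. Hemoglobin and other erythroid genes summed to 30.8 and 717 CPM (25.2 and 376 CPM in T and B cells), led by *Hbb-bs*. Fibroblast markers summed to 264 and 690 CPM (685 and 850 CPM in T and B cells), led by *Col3a1*. Smooth muscle markers went the other way, from 2030 to 789 CPM, as they did in T and B cells (6697 to 1664 CPM), led by *Acta2*. Pericyte markers summed to 386 and 316 CPM, led by *Rgs5*. T cell markers summed to 0 and 9.51 CPM, and B and plasma cell markers to 1.71 and 26.5 CPM. Platelet markers (22.3 and 120 CPM), adipocyte markers (36.0 and 82.9 CPM) and Schwann cell markers (5.14 and 79.5 CPM) were also higher in AngII+HS, while mesothelial (1.71 and 1.36 CPM) and adrenal cortex markers (5.14 and 11.5 CPM) were near 0. Glomerular endothelial markers summed to 151 and 149 CPM and lymphatic endothelial markers to 77.1 and 91.7 CPM. Without cells holding over 1 UMI of the neutrophil and macrophage lists (123 Control and 207 AngII+HS cells remained), 7535 genes were measured, against 8812 before. Of these 7535 genes, 522 were higher and 269 lower past the fold, and 436 and 191 of them were among those above. The part that RNA or cells of other types had in the remaining differences was not tested.

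**Figure D2:**
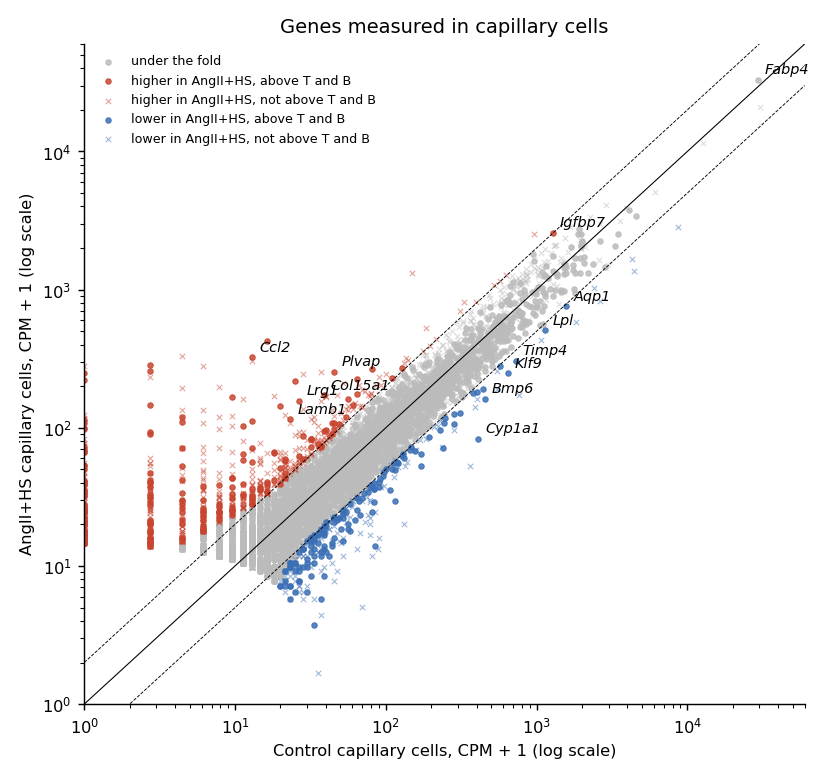
CPM + 1 of each of the 8812 genes in Control (x) and AngII+HS (y) capillary cells, both on log scales; red and blue genes are past the fold, crosses stood under 2-fold above T and B cells, the solid line marks equal levels and the dashed lines a 2-fold difference. Of the 724 red genes 508 are crosses, while *Plvap*, *Lrg1*, *Col15a1* and *Lamb1* above the diagonal and *Lpl*, *Timp4*, *Aqp1*, *Bmp6*, *Klf9* and *Cyp1a1* below it are dots.

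The capillary markers were on the whole lower in AngII+HS. Of 18 listed genes outside the rule, 15 had a lower and 3 a higher level, with a median log2 ratio of -0.33 against 0.03 over all genes; 2 were lower past the fold and 0 higher. In arterial and venous cells the medians were 0.11 and 0.06. Here and below, list medians of arterial and venous cells cover only those members with a UMI in both libraries of that population. They lack the 0.5 UMIs added to each sum for the capillary medians, so the 2 kinds of median are not directly comparable. *Btnl9*, for example, is left out in both. *Timp4* stood at 725 CPM in Control and 306 CPM in AngII+HS (log2 ratio -1.25, interval -1.44 to -1.05). *Aqp1*, the water channel of capillaries, stood at 1568 and 761 CPM (-1.04, -1.17 to -0.91). Both were under 2-fold when each cell had equal weight (-0.92 and -0.82). With the gate applied to cells thinned to 1000 UMIs the ratio of *Timp4* was -0.06 (48 and 91 UMIs). The list's median was -0.07 in that setting, beside -0.09 over all genes, so it was not lower than that of all genes there. Of genes under the fold, *Cd300lg* had a log2 ratio of -0.59, *Tcf15* -0.72 (454 and 275 CPM) and *Cyp4b1* -0.90 (187 and 99.8 CPM). *Aplnr*, the apelin receptor, had the highest ratio of the list at 0.83 (87.4 and 156 CPM). *Rgcc* differed by -0.21. The gate genes were at 1050 and 829 CPM (*Gpihbp1*) and at 4537 and 3417 CPM (*Cd36*), which the rule itself shapes.

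Among genes of fatty acid uptake and lipid handling, the enzyme that frees fatty acids differed most. *Lpl* (chr8:69284603-69360100) stood at 1143 CPM in Control and 510 CPM in AngII+HS (log2 ratio -1.16, -1.32 to -1.01). A UMI of it was found in 88.9% and 67.3% of the cells, and in 60.8% and 41.2% after thinning to 1000 UMIs, against 1.52% and 0.153% of thinned T and B cells. It remained lower in each alternative but was under 2-fold with equal weight per cell (-0.88), with thinned cells (-0.96) and with the gate on thinned cells (-0.75). It was the only one of 23 measured genes outside the rule past the fold; 11 were higher and 12 lower, with a median of -0.04 that was 0.16 with the gate on thinned cells. Binding proteins inside the cell were a little higher, *Fabp4* by 0.17 and *Fabp5* by 0.36 (1162 and 1486 CPM). So were *Plin2*, which coats lipid droplets (264 and 352 CPM, 0.42), and *Angptl4*, an inhibitor of lipoprotein lipase (110 and 181 CPM, 0.72). The lipases *Pnpla2* (175 and 97.1 CPM, -0.85) and *Lipe* (132 and 84.9 CPM, -0.64) and the receptor *Pparg* (451 and 329 CPM, -0.46) were lower. *Scarb1*, a lipoprotein receptor, stood at 500 and 473 CPM, with an interval that included 0.

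*Plvap* was among the genes with the highest ratios. It stood at 44.6 CPM in Control and 254 CPM in AngII+HS (chr8:71948674-71964506; log2 ratio 2.51, 1.94 to 3.14). The share of capillary cells with a UMI was 8.73% and 33.3%, and after thinning 2.40% and 18.9%, against 0.758% and 0.306% of thinned T and B cells. With the stricter gate the ratio was 3.19. In arterial cells *Plvap* stood at 206 and 135 CPM and in venous cells at 932 and 886 CPM, so the levels in AngII+HS capillary cells stayed below those of venous cells. Other genes of caveolae and transcytosis mostly went the other way: of 14 measured with *Plvap* counted in, 3 were higher (*Plvap*, *Cavin3* and *Ehd4*) and 11 lower, with a median of -0.43, and *Aqp1* was lower past the fold. The coat proteins *Cav1* (1520 and 977 CPM, -0.64), *Cav2* (319 and 177 CPM, -0.85), *Cavin1* (980 and 655 CPM, -0.58) and *Cavin2* (893 and 581 CPM, -0.62) were each lower by less than 2-fold, whereas *Cavin3* was higher (103 and 178 CPM, 0.79). Medians of this list were also below 0 in arterial (-0.60) and venous cells (-0.53).

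Angiogenic and tip cell genes had 5 members higher and 1 lower past the fold of 17 measured, with a median of 0.51 that was 0.16 with the gate on thinned cells. Beside *Plvap*, they were the laminin chain *Lamb1* (22.3 and 114 CPM, log2 ratio 2.36), *Nid2* (27.4 and 58.4 CPM, 1.09), the IGF binding protein *Igfbp3* (110 and 230 CPM, 1.07) and the chemokine receptor *Cxcr4*, whose 15.4 and 38.7 CPM lay below its 117 and 167 CPM in T and B cells. The ratio of *Igfbp3* was 0.36 with the stricter gate and -1.30 with the gate on thinned cells (5 and 4 UMIs). In all, 12 of the 17 had a higher and 5 a lower level. The lower ones included *Adm*, the vasodilator peptide adrenomedullin (68.5 and 29.9 CPM, -1.20), past the fold. Also among them was *Dll4*, the Notch ligand of tip cells (178 and 113 CPM, -0.65), under the fold. Arterial and venous medians of this list were 1.30 and 0.97.

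Basement membrane genes had 3 of 16 members higher past the fold and 0 lower, with a median of 0.36. *Col15a1* stood at 37.7 and 172 CPM (2.19, 1.56 to 2.89) and the chains of collagen IV at 1278 and 1754 CPM (*Col4a1*, 0.46) and 701 and 1137 CPM (*Col4a2*, 0.70). *Nid1* (276 and 202 CPM, -0.45) and *Sparcl1* (800 and 560 CPM, -0.51) were lower. With the gate on thinned cells the list's median was 0.01. Medians in arterial and venous cells were 0.91 and 0.62. In VEGF, angiopoietin and Notch signaling, 0 of 21 genes were past the fold in either direction, and 17 were lower, with a median of -0.32. The VEGF receptors *Flt1* (3300 and 2059 CPM, -0.68) and *Kdr* (937 and 751 CPM, -0.32), the receptor *Notch4* (87.4 and 58.4 CPM, -0.58) and the phosphatase *Ptprb* (1090 and 698 CPM, -0.64) were among them.

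By the fixed rule for single genes (at least 50 UMIs, present in at least 10% of the cells of a library, above T and B cells), the 15 highest ratios belonged to *Ccl2*, *Mmp14*, *Lyz2*, *Ifi207*, *Pf4*, *Ccl7*, *Lrg1*, *Plvap*, *Septin10*, *Lamb1*, *Fam167b*, *Tfpi*, *Col15a1*, *2510009E07Rik* and *Sema6d*. *Lrg1*, a secreted glycoprotein that acts on TGF-beta signaling in endothelium, stood at 25.7 and 156 CPM (2.60, 1.85 to 3.46), with 4.76% and 27.6% of cells holding a UMI. In venous cells it stood at 646 and 961 CPM. *Tfpi*, the inhibitor of the tissue factor pathway, stood at 12.0 and 55.7 CPM (2.22) and *Sema6d*, a semaphorin, at 63.4 and 225 CPM (1.83). *Ccl2*, a monocyte chemokine, stood at 12.0 and 323 CPM against 21.6 and 120 CPM in T and B cells, and its log2 ratio was 4.75 in capillary, 5.22 in arterial and 2.57 in venous cells. *Lyz2* is itself a marker on the macrophage list. The T and B gate capped its level (72.9 CPM in AngII+HS), so its place above T and B cells is partly set by that gate. *Pf4*, the leading gene of the platelet list, and *Ccl7* had ratios of 3.21 and 2.93, and of 1.42 and 1.38 without cells holding over 1 UMI of the neutrophil and macrophage lists, on which neither stands.

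Among the 15 lowest ratios were those of *Gm17056*, *Cyp1a1*, *Tex14*, *Itpripl1*, *Zbtb16*, *Lrrc36*, *Zfp503*, *9930111J21Rik2*, *Slc10a6*, *Slc1a1*, *Cdh23*, *Ephb1*, *4732471J01Rik* and *Bmp6*. *Cyp1a1*, a target of the aryl hydrocarbon receptor, stood at 406 and 82.2 CPM (-2.30, -2.63 to -1.98), with a UMI in 42.9% and 15.8% of cells and 21.6% and 7.23% after thinning. In arterial cells it stood at 4.23 and 1.46 CPM and in venous cells at 9.97 and 9.25 CPM. *Bmp6*, a bone morphogenetic protein made by endothelium, stood at 451 and 161 CPM (-1.49, -1.74 to -1.23), and 66.7% and 36.4% of cells held a UMI. In arterial cells it was higher in AngII+HS, with 815 and 1062 CPM. With the gate on thinned cells its ratio was -0.51 (31 and 43 UMIs). *Zfp503*, *Slc1a1* and *4732471J01Rik* rested on 3 UMIs or fewer of thinned Control cells in that setting, and their ratios turned positive there.

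**Figure D3:**
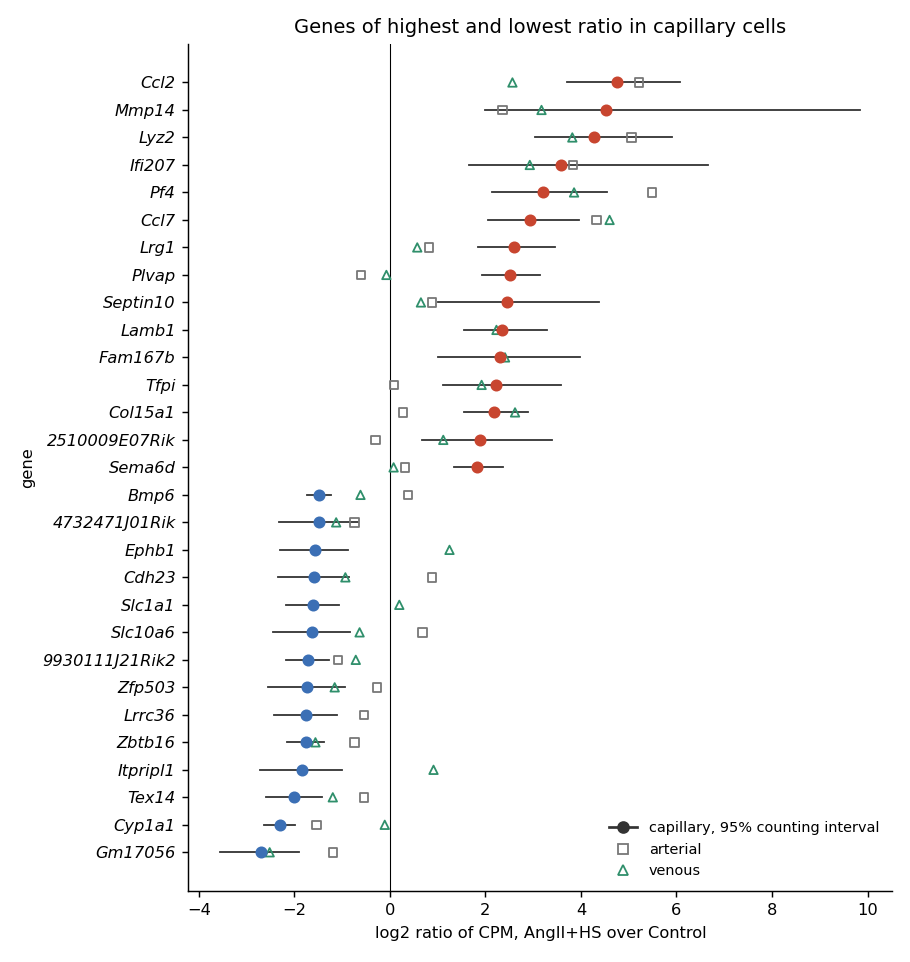
Log2 ratio of CPM, AngII+HS over Control, of the genes named by the rule for highest and lowest ratios in capillary cells (filled circles, lines are 95% counting intervals), with arterial (open squares) and venous (open triangles) ratios where both libraries held a UMI. *Plvap* has arterial and venous ratios of -0.61 and -0.07 beside 2.51 in capillary cells, and *Bmp6* has an arterial ratio of 0.38 beside -1.49.

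Inflammatory genes did not move as one group. Of 16 leukocyte adhesion and chemokine genes, 4 were higher and 1 lower past the fold (8.22% and 3.27% over all genes), with a median of 0.24. The higher were *Ccl2*, *Cxcl2*, *Cxcl10* and *Sele*. *Cxcl2* stood at 147 and 1318 CPM, near its 1222 CPM in AngII+HS T and B cells, and *Sele*, the selectin of activated endothelium, at 0 and 15.6 CPM (0 counts in Control allow up to 5.14 CPM). *Cxcl9*, an interferon-induced chemokine, was lower (194 and 84.2 CPM, -1.20). *Icam1* stood at 994 and 932 CPM and *Vcam1* at 39.4 CPM in both libraries. Interferon-stimulated genes had 1 higher and 2 lower past the fold of 26, with a median of -0.27 (0.28 in arterial and 0.54 in venous cells): *Iigp1*, a GTPase against intracellular pathogens, stood at 572 and 278 CPM (-1.04), *Ifit3* at 22.3 and 8.83 CPM (-1.33), and *Ifi27l2a* at 29.1 and 61.1 CPM, below its level in T and B cells. Of 14 MHC class I genes 0 were past the fold, with a median of -0.25. This median and that of the interferon-stimulated genes were both 0.11 with the gate on thinned cells. All 4 measured MHC class II genes were higher. They stood below T and B cells, but B cells can express these genes, so that level is not a pure background. *H2-Aa* stood at 0 and 115 CPM in capillary and at 479 and 1267 CPM in T and B cells.

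Among 15 mesenchymal and interstitial matrix genes, 6 were higher and 2 lower past the fold (8.22% and 3.27% over all genes), with a median of 0.90. The higher ones, *Timp1*, *S100a4*, *Lum*, *Col3a1*, *Postn* and *Col1a1*, stood under 2-fold above their T and B level in AngII+HS, and the lower ones, the smooth muscle genes *Acta2* (1066 and 431 CPM) and *Tagln* (548 and 255 CPM), stood below them in both libraries. Of 4 measured EndMT transcription factors, *Zeb2* was past the fold (17.1 and 168 CPM, against 153 and 269 CPM in T and B cells); *Snai1* stood at 63.4 and 118 CPM (0.90), against 3.60 and 3.70 CPM in T and B cells. Endothelial identity genes had 1 of 20 past the fold, the sialomucin *Cd34* (127 and 271 CPM, 1.10), whose ratio was -0.03 with the gate on thinned cells (14 and 27 UMIs), and a median of -0.19. Junction genes had 1 of 16 past the fold, the connexin *Gja4* (5.14 and 25.1 CPM), with a median of -0.17; *Cldn5*, the main claudin of endothelium, stood at 1184 and 1222 CPM. Of arterial genes 2 of 13 were higher past the fold (*Gja4* and *Edn1*), with a median of 0.06 that was 0.63 with the strict gate, and of venous genes 2 were higher (*Lrg1* and *Sele*) and 2 lower (*Cpe* and *Ptgis*, both below T and B cells in each library) of 11, with a median of 0.14 that was 0.74 with the strict gate and -0.03 with the loose gate. Of 2 measured lymphatic genes, *Pdpn* was higher past the fold (0 and 17.0 CPM; 0 counts allow up to 5.14 CPM), under 2-fold above its 11.5 CPM in AngII+HS T and B cells, and *Flt4* stood at 68.5 and 56.4 CPM.

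Genes of growth control, hormones and vessel tone gave a mixed picture. Over all genes measured, 8.22% were higher and 3.27% lower past the fold. Of 20 BMP and TGF-beta genes, 2 were lower past the fold, *Bmp6* and *Ltbp1* (84.0 and 23.8 CPM, below T and B cells), with a median of -0.18, and the BMP receptor *Acvrl1* stood at 161 and 90.3 CPM (-0.83). *Id1*, a BMP target, stood at 1518 and 1526 CPM. Of 14 glucocorticoid and mineralocorticoid genes, 2 were lower past the fold, *Klf9* (643 and 247 CPM, -1.38) and *Zbtb16* (240 and 70.6 CPM, -1.76), with a median of -0.20. *Tsc22d3* (192 and 105 CPM) had a ratio of -0.88 and *Fkbp5* (106 and 109 CPM) one of 0.03. Of 15 genes of angiotensin, nitric oxide and endothelin, 3 were higher past the fold, among them *Edn1* (8.57 and 42.1 CPM, 2.30) and *Ddah1*, and *Ptgis* was lower. The list's median was 0.13, and -0.0003 with equal weight per cell. *Ddah1* stood below T and B cells in AngII+HS. The synthase *Nos3* stood at 140 and 111 CPM. Of 10 insulin and IGF genes, 3 were higher past the fold, *Igfbp4*, *Igfbp3* and *Igfbp7* (1280 and 2578 CPM, 1.01; 0.88 with equal weight per cell), with a median of 0.46. Of 22 endothelial transcription factors 0 were past the fold, with a median of -0.23 that was 0.11 with the gate on thinned cells. *Klf4* (1790 and 943 CPM) had the lowest ratio, -0.92. Immediate early and stress genes had 0 of 25 past the fold and a median of -0.39 (-0.18 with thinned cells and -0.03 with the gate on thinned cells), with *Atf3* (1107 and 564 CPM, -0.97) and *Egr1* (2839 and 1468 CPM, -0.95) lowest.

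All 13 genes of the mitochondrial genome were lower, 11 of them past the fold, with a median of -1.52; *mt-Atp6*, the most abundant, stood at 8657 and 2836 CPM. The direction was the same elsewhere: medians were -1.12 in arterial and -1.31 in venous cells, and the median mitochondrial share of UMIs was 3.60% and 1.09% over all kept cells and 2.28% and 1.07% in capillary cells. Of 26 nuclear genes of the respiratory chain, 24 were higher and 2 of these past the fold, *Atp5g1* (72.0 and 185 CPM) and *Cox5b* (75.4 and 171 CPM), with a median of 0.50. After subtraction of the T and B profile that median was -0.14, beside -0.79 over all genes in that setting. The list's sum was also higher in AngII+HS T and B cells (3580 and 4642 CPM), and its median was 0.19 in arterial and 0.65 in venous cells. Glycolysis and hypoxia genes had 2 higher (*Pgk1* and *Gapdh*) and 3 lower (*Hk2*, *Adm* and *Bnip3*) past the fold of 18, with a median of -0.04. Of 9 measured cell cycle genes 2 were higher past the fold, *Top2a* (1.71 and 19.0 CPM) and *Tyms* (5.14 and 18.3 CPM); *Top2a* stood below its 83.6 CPM in AngII+HS T and B cells, and the list's median of 0.94 was 0.09 with thinned cells.

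**Figure D4:**
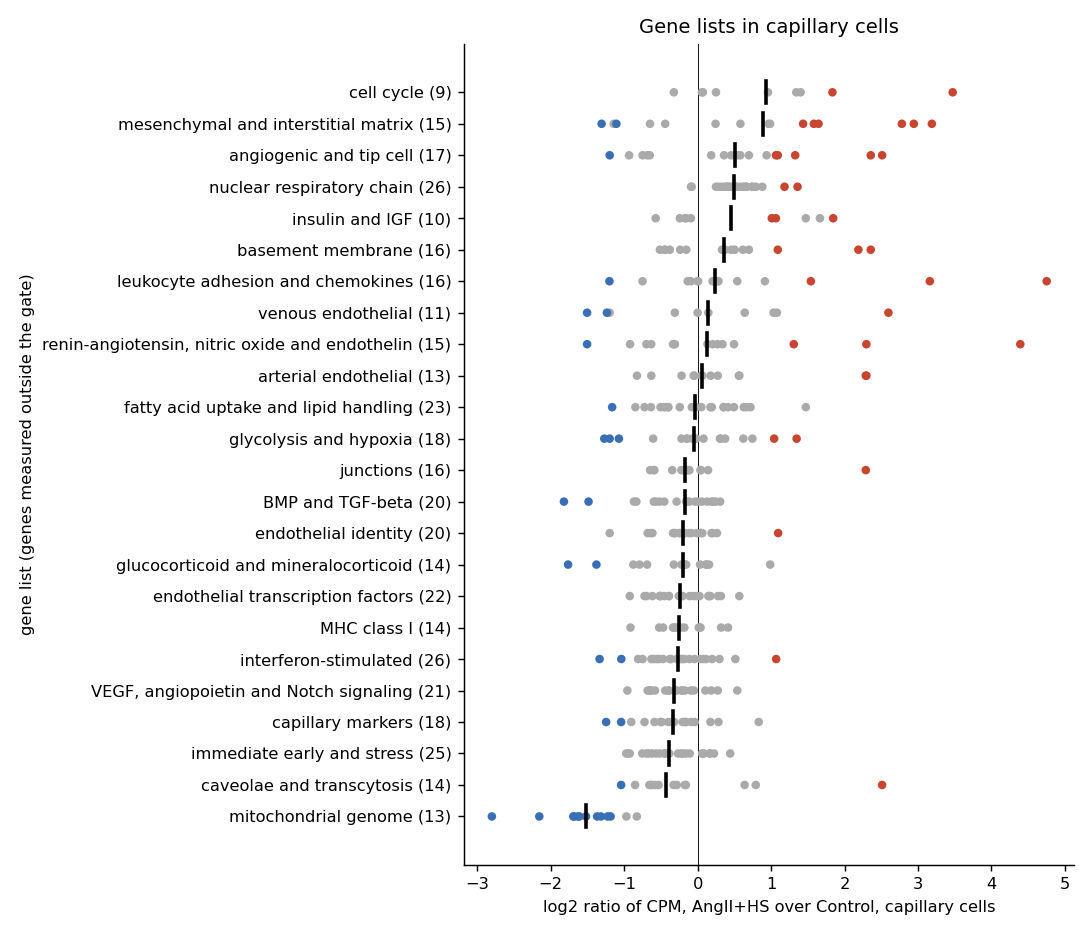
Log2 ratio of each measured gene outside the rule, for the lists with at least 9 such genes (numbers in brackets); red and blue points are higher and lower past the fold, grey points under it, and the black bars are list medians. The mitochondrial genome lies lowest with a median of -1.52; genes with no Control UMI have no finite ratio and are not drawn.

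Within AngII+HS, the capillary cells differed among themselves, and the split by *Plvap* was described after its values were seen. The 110 cells with a *Plvap* UMI (median 5344 UMIs) were deeper than the 220 without one (median 2864.5 UMIs). Several capillary genes were lower in cells with *Plvap*, while *Aplnr*, also a capillary marker, was higher (198 and 121 CPM). *Lpl* stood at 291 CPM with and 686 CPM without *Plvap*, and *Timp4* at 133 and 444 CPM. *Btnl9* stood at 221 and 498 CPM and *Bmp6* at 67.1 and 236 CPM. *Cd36*, which the rule required of every cell, stood at 2494 and 4157 CPM, a description only. The cells with *Plvap* held more *Lrg1* (243 and 85.7 CPM), *Col15a1* (253 and 107 CPM) and *Lamb1* (166 and 72.2 CPM). They also held more *Ehd4*, an endocytic recycling protein (182 and 61.2 CPM). *Cdh5*, the cadherin of all endothelium and a gene of the rule, stood at 1593 and 1530 CPM, both below the 2059 CPM of all Control capillary cells. With cells thinned to 1000 UMIs (60 with and 258 without *Plvap*) the contrasts of the other genes just given kept their direction and that of *Cdh5* turned (1517 and 1702 CPM), with *Lpl* at 217 and 779 CPM, *Timp4* at 133 and 457 CPM and *Lrg1* at 283 and 73.6 CPM.

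*Gpihbp1* stood at 984 CPM in the AngII+HS cells without a *Plvap* UMI and at 1050 CPM in all Control capillary cells. The rule required it of every cell, so these levels are descriptions only. In the same AngII+HS cells, *Car4* (323 CPM) and *Btnl9* (498 CPM) stood near the levels of all Control capillary cells (341 and 526 CPM). *Lpl* (686 against 1143 CPM), *Timp4* (444 against 725 CPM), *Aqp1* (939 against 1568 CPM) and *Bmp6* (236 against 451 CPM) stood below them, with counting intervals that do not meet. Only 11 Control cells held a *Plvap* UMI, and 3 after thinning, so the split was not read there. From cell to cell, *Gpihbp1* and *Cd36* had a Pearson r of log-normalized values of 0.54 over 126 Control and 0.59 over 330 AngII+HS cells. The rule selected on both genes, so correlations with either are descriptions only. *Plvap* and *Cd36* had r = -0.14 and -0.36, and *Plvap* and *Lrg1* 0.21 and 0.34. The cells of each library share its depth range and the gate, and no test was made of these correlations.

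**Figure D5:**
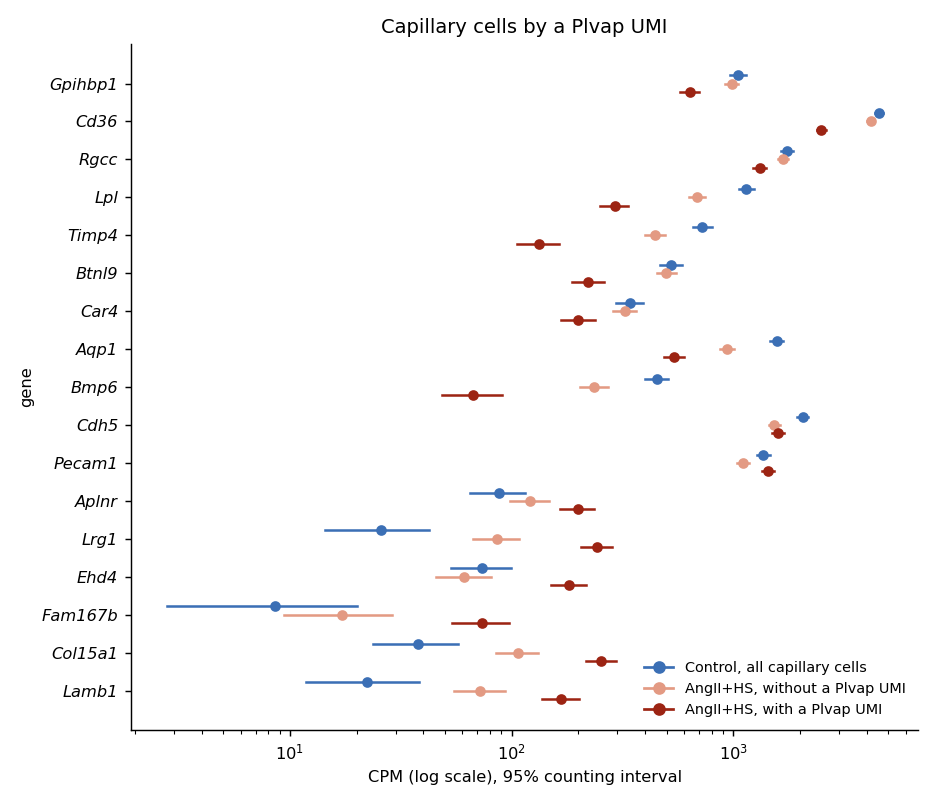
CPM on a log scale with 95% counting intervals in all Control capillary cells (blue) and in AngII+HS capillary cells without (light red) and with (dark red) a *Plvap* UMI. For *Lpl*, *Timp4*, *Aqp1* and *Bmp6* both AngII+HS groups lie below Control. Both also lie below Control for *Cd36* and the general endothelial gene *Cdh5*, which are in the rule. For *Btnl9*, *Car4* and *Rgcc* the group with *Plvap* alone lies lower than Control with no overlap of the intervals. The level of *Gpihbp1* is shaped by the rule and is not compared.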

How the data were processed

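Cells of the suprarenal abdominal aorta were loaded for droplet sequencing after a 40 um filter at a required viability of 80%. The authors deposited 1 matrix of UMI counts per library (11448 and 24804 barcodes; 86618995 and 117146856 UMIs; 33696 genes). The matrix header names Cell Ranger 8.0.1, the study's methods Cell Ranger 7.0 with GRCm39, and the submitters' processing notes mm10 and Seurat 4.0.5. Which of these made the deposited counts was not settled.

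Barcodes with at least 500 UMIs, 200 genes and under 20% mitochondrial UMIs were kept, capillary cells were gated on raw UMIs, and their counts were summed per library and scaled to CPM. No doublets were removed in the main analysis; Scrublet calls were removed as an alternative. Log2 ratios of AngII+HS over Control have exact conditional 95% intervals for 2 Poisson counts, and shares exact Clopper-Pearson intervals. UMIs of 1 library give counting error only; a count of 0 allows up to 3 counts. Past the fold means at least 2-fold with the interval on one side of 0, among genes with at least 20 UMIs. With 1 library per condition no p-value was computed. Genes were named by rule: the gate genes with *Rgcc*, the 15 highest and 15 lowest ratios among genes with at least 50 UMIs, in at least 10% of cells of a library and at least 2 times the T and B level, the 15 genes farthest above arterial and venous cells, and examples from each list; some further list members were chosen after their values were seen. Some genes that the rule or a list names are not reported here. The members and lists were chosen with earlier results of these data known. Python 3.11.15, numpy 2.4.6, pandas 2.3.3, scipy 1.17.1, scanpy 1.11.5, matplotlib 3.10.9, R 4.3.3 and edgeR 4.0.16 (TMM factors of the summed counts only) were used, and the ratio script was tested on simulated data. Alternatives were other gates, cell filters, thinning to 1000 UMIs, doublet removal, other scalings, subtraction of the T and B profile and other low-count filters.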

Additional observations from a re-analysis of the deposited data

Results flagged for a closer look

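The log2 ratio of *Plvap*, AngII+HS over Control, was -0.61 in arterial cells and 2.51 in capillary cells, so the populations moved in opposite directions. The log2 ratio of *Bmp6* was 0.38 in arterial cells and -1.49 in capillary cells, again in opposite directions. With 1 library per condition neither difference was tested.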

How the results depend on the processing

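The log2 ratio of the share of capillary cells among all cells, 0.27, turned to -0.25 with the strict gate and -0.12 with the gate on cells thinned to 1000 UMIs; that among endothelial cells, 0.78, moved to 0.26 and 0.25. The 724 higher of 8812 genes became 105 of 2232 measured with the gate on thinned cells and 179 of 4051 with gated cells thinned. They became 386 of 5358 after subtraction of the T and B profile and 408 of 5886 at a minimum of 50 UMIs. The 288 lower genes became 70, 137, 1338 and 150 in these settings and 446 of 17899 with no filter on low counts. The counts thus differ partly because the number of genes measured differs. Of the 105 and 70, 35 and 22 were among the main calls. The subtraction moved the median of all genes from 0.03 to -0.79 and left 384508 of 583657 UMIs in Control and 715306 of 1472404 in AngII+HS (the profile was scaled to 39.2% and 68.8% of the UMIs, with no gene below 0) while the totals before subtraction kept scaling both libraries, so its ratios and counts are shifted downward by construction. The median of the capillary markers was -0.074 with the gate on thinned cells, where *Zfp503* (1.02), *Slc1a1* (0.24), *4732471J01Rik* (0.019), *Cd34* (-0.033) and *Igfbp3* (-1.30) also changed sign; *Dcn* did so after the subtraction (-2.33). The interferon-stimulated and MHC class I medians, -0.27 and -0.25, were both 0.11 with the gate on thinned cells, and that of endothelial transcription factors, -0.23, was 0.11. Over the alternatives other than the subtraction, list medians ran from 0.09 to 1.18 (cell cycle), 0.51 to 1.99 (mesenchymal), 0.08 to 1.58 (EndMT factors), 0.16 to 0.57 (angiogenic), 0.02 to 0.69 (arterial), -0.03 to 0.77 (venous), 0.07 to 0.84 (insulin and IGF), 0.15 to 0.53 (leukocyte adhesion), 3.23 to 6.41 (MHC class II), -0.42 to -0.03 (immediate early), -0.39 to -0.07 (BMP and TGF-beta), -0.45 to -0.14 (glucocorticoid), -0.34 to 0.12 (glycolysis), -0.10 to 0.19 (fatty acid), -0.49 to -0.23 (caveolae) and -0.25 to -0.01 (junctions). Causes were not tested. No paired analysis was possible because each condition has 1 library. Depth limits genes of few UMIs, since thinned capillary cells of the gate held 75000 and 148000 UMIs in all.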
